A study of Mus musculus with 2 samples.

Results

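The platelet-derived growth factor (PDGF) genes are described here in the molar mesenchyme of Osr2 mutant mouse embryos. They comprise 4 ligand genes (Pdgfa, Pdgfb, Pdgfc and Pdgfd), the receptor kinase genes Pdgfra and Pdgfrb, and the receptor-like gene Pdgfrl. They were selected by gene symbol and make up 7 of 22072 genes and 9 of 28107 transcript rows. The tissue was lower molar mesenchyme at embryonic day 14.5 on a mixed background, cut from frozen head sections by laser capture. One library came from heterozygous controls (Osr2+/-), which already lack 1 functional copy of Osr2, and the other from homozygous mutants (Osr2-/-). The series title speaks of wild type in place of Osr2+/-; the sample labels are followed here, and the folds would be against wild type if the title holds. Tissue from 3 control and mutant pairs was pooled ahead of RNA extraction, so each genotype is represented by 1 library (n = 1). With 1 library per genotype there is no replicate check, no test and no p-value, and every difference below describes these 2 libraries. Osr2 is a zinc-finger DNA-binding protein made in dental mesenchyme, and embryos that lack it form supernumerary teeth beside the molars.

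PDGF ligands are disulfide-linked dimers that bring pairs of receptor chains together and so switch on their tyrosine kinase domains. PDGF-AA and PDGF-CC act mainly through the alpha receptor encoded by Pdgfra, PDGF-DD mainly through the beta receptor encoded by Pdgfrb, and PDGF-BB through both. In the face, the alpha receptor marks neural crest-derived mesenchyme, including that of the tooth germ, and responds to ligand from the neighbouring epithelium, while the beta receptor is best known from pericytes and vascular smooth muscle. PDGF-C and PDGF-D are secreted in a latent form, from which a protease must remove a CUB domain before they bind.

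The promoters of Pdgfra and Pdgfc are shown. Nearly all Pdgfra signal was assigned to the transcript row that starts beside the Pdgfra promoter. Pdgfc encodes a ligand of the same receptor, and its promoter carries a motif that few promoters hold. RefSeq promoter entries (GRCm38.p6) matched 4 of the 7 genes. Each sequence is the 250 bases before the annotated start, on the plus strand. Capitals mark matches, on either strand, to the TATA box TATAAA, the CCAAT box CCAAT, the GC box GGGCGG or the CArG box, the element that serum response factor binds.
Pdgfra, chr5:75152001-75152250: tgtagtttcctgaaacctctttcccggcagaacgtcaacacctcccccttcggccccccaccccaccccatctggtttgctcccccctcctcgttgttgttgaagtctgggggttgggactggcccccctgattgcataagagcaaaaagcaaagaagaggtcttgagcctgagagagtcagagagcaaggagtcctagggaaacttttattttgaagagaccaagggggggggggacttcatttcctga
Pdgfc, chr3:81036166-81036415: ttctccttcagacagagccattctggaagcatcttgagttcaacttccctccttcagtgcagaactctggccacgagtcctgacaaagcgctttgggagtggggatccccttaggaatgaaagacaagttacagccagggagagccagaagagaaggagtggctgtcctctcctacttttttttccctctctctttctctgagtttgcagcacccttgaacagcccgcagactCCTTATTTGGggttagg
The Pdgfra sequence has a GC content of 54.4% and no capital, so none of the 4 motifs occurs in these letters. The Pdgfc sequence has a GC content of 50.8% and 1 match, a CArG box from base -17 to base -8 relative to the start. A CArG box was present in 1.47% of 32851 RefSeq promoter windows of this length, a TATA box in 12.4%, a CCAAT box in 33.8% and a GC box in 32.7%. The entries not printed held GC boxes (Pdgfa) and a TATA box (Pdgfd), and Pdgfc was chosen for print by its match. A match describes the letters only, and binding was not measured.

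The libraries differed in depth, with coverage at a given RPKM 6.38 times as high in the Osr2-/- library. With 44.3 bases taken as 1 read, an uncertain step, this gives about 5.38 M mapped reads for Osr2+/- and 34.3 M for Osr2-/-. Per the names of the files, each library was run on its own lane, so effects of lane and of genotype cannot be told apart. Osr2 was at 38.7 RPKM in the Osr2+/- library and 9.16 RPKM in the Osr2-/- library. Which part of Osr2 the allele removes is not stated in the labels. In RPKM the reads of a transcript are divided by its length and by the mapped reads of the library, so levels of different genes can be compared. A gene counted as tested when it reached 1 RPKM in at least 1 library, which 5 of the 7 PDGF genes did, among 9779 genes in all; tested here means only that a log2 ratio was computed. Pdgfb and Pdgfd stayed below that level in both libraries. Intervals are 95% counting intervals from approximate read numbers and cover counting error only. They treat each read as independent, while the cDNA was amplified before sequencing, so they may be too narrow.

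Both receptor kinase genes were expressed well above the ligand genes, and they differed in opposite directions between the libraries. Pdgfra was 1.37-fold lower in the Osr2-/- library (interval 1.27 to 1.48) and Pdgfrb 1.21-fold higher (1.06 to 1.38). None of the 5 genes tested was at least 2-fold apart on the log2(RPKM + 1) scale, against 1.69% of all genes tested. Pdgfra was the only member with a fold interval below 1, a call made for 15.9% of all genes tested, and Pdgfrb the only one with an interval above 1, a call made for 7.84%. Such calls are frequent at this depth, so 2 of 5 genes do not set the family apart from the background of 23.7%.

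Pdgfra, the gene of the alpha receptor, was at 22.7 RPKM in the Osr2+/- library (interval 21.1 to 24.3) and 16.5 RPKM in the Osr2-/- library (16.0 to 17.1). The control library was the higher one and the intervals did not overlap. The values rest on about 799 reads in the Osr2+/- library and 3718 in the Osr2-/- library, and the mean coverage per base was 5.40 and 25.1 before any scaling for depth. The log2 ratio was -0.43, and 8.11% of all genes tested had a lower one; the middle 90% of genes lay between -0.52 and 0.44, so Pdgfra lay inside that range. By level, Pdgfra was the 661st gene in the Osr2+/- library and the 924th in the Osr2-/- library. In bulk tissue of this kind, fewer cells that express a gene and less RNA per cell cannot be told apart.

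The lower level of Pdgfra was found in both of its transcript rows. The gene is located on chromosome 5 from 75548316 to 75594229 in mm9, and its rows start 3875 bases apart, with transcript lengths of 6553 and 6570 bases. The longer-spanning row, NM_011058, was at 21.0 RPKM in the Osr2+/- library and 15.3 RPKM in the Osr2-/- library. It held 92.8% of the gene's RPKM in the Osr2+/- library and 92.2% in the Osr2-/- library. The row with the downstream start, NM_001083316, was at 1.63 RPKM in the Osr2+/- library and 1.28 RPKM in the Osr2-/- library, with a fold interval of 0.591 to 1.06. The share of the signal assigned to each start was therefore nearly the same in both libraries. The rows have the same end and nearly the same length, so many reads can belong to either and this division is uncertain. In GENCODE M21 on GRCm38, the transcript matched to NM_011058 starts 55 bases downstream of the RefSeq start used for the printed promoter, and that matched to NM_001083316 starts 3648 bases downstream of it.

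Pdgfrb, the gene of the beta receptor, was at 9.12 RPKM in the Osr2+/- library (8.05 to 10.3) and 10.99 RPKM in the Osr2-/- library (10.5 to 11.5). Here the mutant library was the higher one, again without overlap of the intervals. About 265 reads lay behind the control value and 2040 behind the mutant value, with a mean coverage of 2.17 and 16.7. The log2 ratio of 0.25 was above that of 86.5% of all genes tested. The interval of the fold depends on the number of bases taken as 1 read, and with 100 bases in place of 44.3 it was 0.994 to 1.47 and included 1.

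The rows of Pdgfrb, unlike those of Pdgfra, went in opposite directions. Both span chromosome 18 from 61204804 to 61244721 in mm9 and differ in length by 3 bases, 5413 against 5410. The 5413-base row was at 4.42 RPKM in the Osr2+/- library and 3.62 RPKM in the Osr2-/- library, and the 5410-base row at 4.70 and 7.38 RPKM. The longer row held 48.5% of the gene's RPKM in the Osr2+/- library and 32.9% in the Osr2-/- library. Transcripts this alike share nearly all of their reads, so their division is uncertain and the summed value is the one used. With only the higher row of each gene, the log2 ratio of Pdgfrb was 0.56.

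**Figure D1:**
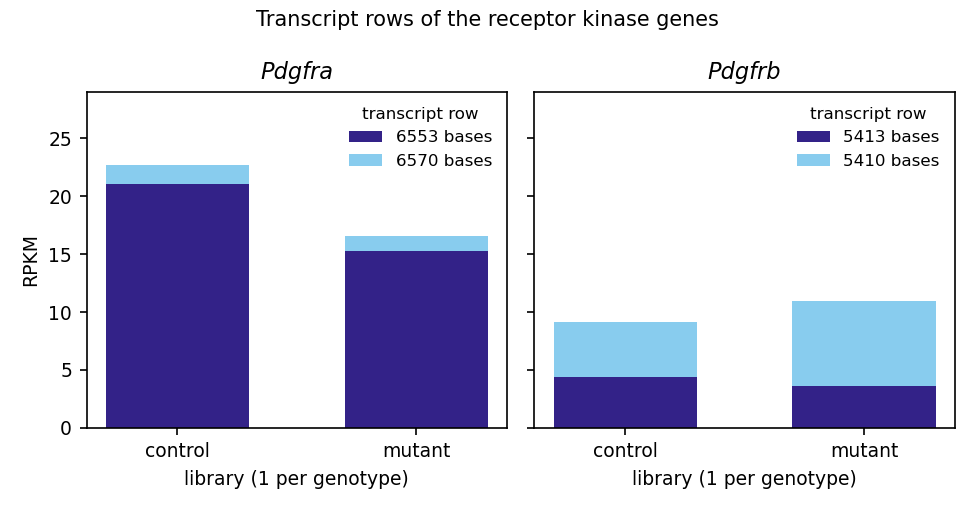
Stacked bars give the RPKM of the transcript rows of Pdgfra and Pdgfrb in the control and the mutant library (1 library per genotype), with transcript length in the key. The 6553-base row makes up most of Pdgfra in both libraries, whereas the 5413-base row of Pdgfrb goes from 48.5% to 32.9% of the gene.

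The balance of the receptors differed between the libraries. Within the Osr2+/- library Pdgfra was 2.49 times as high as Pdgfrb (interval 2.16 to 2.87), and within the Osr2-/- library 1.504 times (1.42 to 1.59). Pdgfra made up 71.3% of the summed RPKM of both kinase genes in the Osr2+/- library and 60.1% in the Osr2-/- library. These ratios are formed within a library, so they do not depend on the scaling between libraries. The difference between the ratios was not tested, since there is 1 library per genotype.

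Pdgfrl, which encodes a secreted or cell-surface protein related to the receptors' extracellular part and without a kinase domain, was at a low level. It was at 1.37 RPKM in the Osr2+/- library (0.693 to 2.44, about 11 reads) and 0.741 RPKM in the Osr2-/- library (0.527 to 1.01, about 39 reads). The control value was the higher one but the intervals overlapped. The plain fold was 1.85-fold lower with an interval of 0.865 to 3.66, so a difference was not detectable at this depth. Pdgfrl is located on chromosome 8 from 42011587 to 42076124 in mm9, and it passed the filter through the control library alone.

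Among the ligand genes, Pdgfa and Pdgfc carried most of the signal, and none had a fold interval that excluded 1. Together the 4 ligand genes summed to 11.2 RPKM in the Osr2+/- library and 11.4 RPKM in the Osr2-/- library. Pdgfa, the A chain gene, on chromosome 5 from 139452929 to 139470907, measured 5.17 RPKM in the Osr2+/- library (3.44 to 7.46) and 6.35 RPKM in the Osr2-/- library (5.54 to 7.24). The mutant value was 1.23-fold the control value (0.827 to 1.89), on about 28 reads in the Osr2+/- library, and the intervals of the levels overlapped. Pdgfc, the C chain gene, on chromosome 3 from 80840338 to 81017953, measured 4.61 RPKM in the Osr2+/- library (3.69 to 5.68) and 3.81 RPKM in the Osr2-/- library (3.47 to 4.17). It was 1.21-fold lower (0.951 to 1.53), with overlapping intervals.

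The remaining ligands were detected near or below 1 RPKM. Pdgfb, the B chain gene made chiefly by endothelium and platelets, was at 0.857 RPKM in the Osr2+/- library (0.464 to 1.45) and 0.819 RPKM in the Osr2-/- library (0.652 to 1.02). Its fold of 0.956 had an interval of 0.535 to 1.84. Pdgfb lies on chromosome 15 from 79826306 to 79845238, the chromosome of Osr2, at a distance of 44.6 Mb. Pdgfd, the D chain gene, on chromosome 9 from 6168612 to 6377519, measured 0.607 RPKM in the Osr2+/- library (0.219 to 1.33, about 6 reads) and 0.437 RPKM in the Osr2-/- library (0.288 to 0.636, about 27 reads). For neither gene was a difference detectable at this depth, and the Pdgfd interval of 0.289 to 2.16 allows more than a 2-fold difference in either direction.

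**Figure D2:**
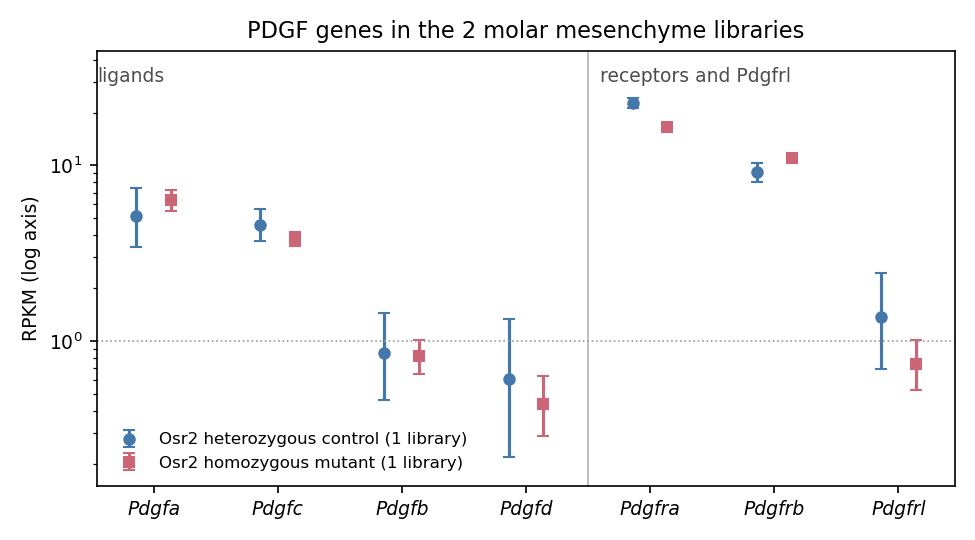
Points give the RPKM (log axis) of each PDGF gene in the control and the mutant library, with 95% counting intervals; the dotted line marks the 1 RPKM filter. Intervals do not overlap for Pdgfra (22.7 and 16.5 RPKM) and Pdgfrb (9.12 and 10.99 RPKM) and overlap for the other genes.

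The order of the levels was nearly the same in both libraries. In the control it ran Pdgfra, Pdgfrb, Pdgfa, Pdgfc, Pdgfrl, Pdgfb and Pdgfd. Pdgfa could not be separated from Pdgfc there by their intervals, nor Pdgfrl from Pdgfb or Pdgfb from Pdgfd. In the mutant Pdgfb stood before Pdgfrl, the intervals of these neighbours overlapped, and so did those of Pdgfrl and Pdgfd. Pdgfa was 1.12 times Pdgfc in the Osr2+/- library (0.707 to 1.73) and 1.67 times in the Osr2-/- library (1.41 to 1.96), and these intervals overlapped as well. Pdgfa made up 46.0% of the ligand RPKM in the Osr2+/- library and 55.6% in the Osr2-/- library, and Pdgfc 41.0% and 33.4%.

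**Figure D3:**
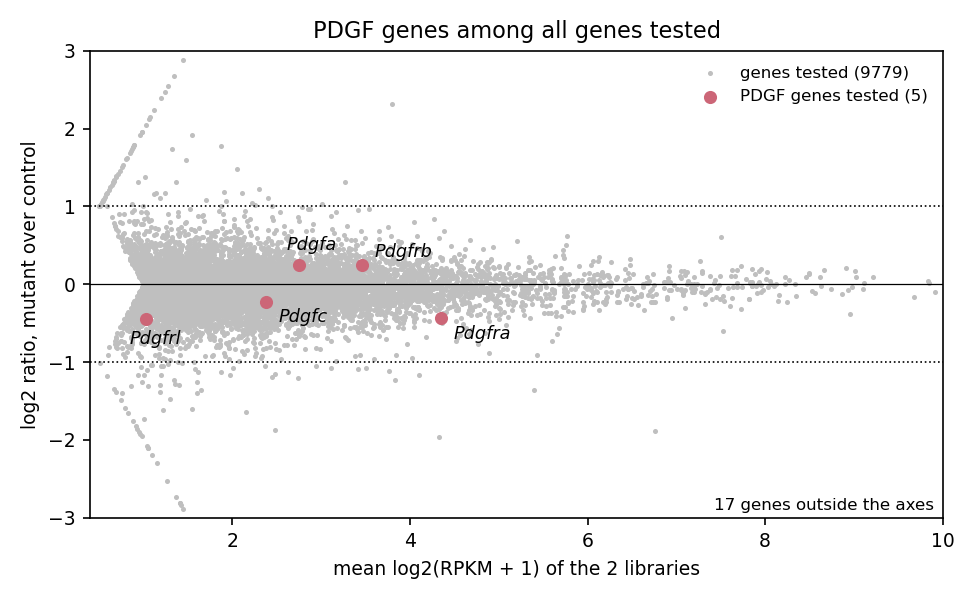
Each grey point is a gene tested (9779 in all, 17 of them outside the axes), by its mean log2(RPKM + 1) and its log2 ratio of mutant over control; red points are the 5 PDGF genes tested and dotted lines mark 2-fold. All 5 lie inside the 2-fold lines, Pdgfra at -0.43 and Pdgfrb at 0.25.

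The genes nearest to the receptors in level over both libraries are named as a description. By Euclidean distance in log2(RPKM + 1), Rsu1, Got2 and Copb1 lay nearest to Pdgfra, at distances of 0.040 to 0.060. Slitrk6, Msi2 and Yeats4 lay nearest to Pdgfrb, at 0.020 to 0.041. With 2 libraries this likeness describes a pair of levels only.

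Genes beside Pdgfra on chromosome 5 were also read. Within 500 kb, 3 of 4 neighbours were tested, with log2 ratios from -1.08 to -0.086, all below 0. A ratio below 0 is common, since only 4156 of 9779 genes tested lay above 0. Lnx1, at -0.086, was at 1.36 RPKM in the Osr2+/- library and 1.23 RPKM in the Osr2-/- library. Kit, the type III receptor tyrosine kinase gene 376783 bases away, was at 4.82 RPKM in the Osr2+/- library and 1.75 RPKM in the Osr2-/- library, 2.75-fold lower (2.23 to 3.38). Chic2 was at 4.90 and 3.64 RPKM with a fold interval of 0.496 to 1.15. Around Pdgfrb, 11 of 20 neighbours were tested, with log2 ratios from -0.37 to 0.43. Among them Csf1r, the macrophage colony-stimulating factor receptor gene 20505 bases away, was at 2.42 and 2.31 RPKM.

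Related receptors and their ligands showed the largest difference at Kit. The list of type III receptor kinases and ligands outside the PDGF family held 7 genes, of which 4 were tested. Of these, Kit was at least 2-fold lower and none was at least 2-fold higher, against 0.798% and 0.89% of all genes tested, and 2 had an interval below 1, against 15.9%. The median log2 ratio was -0.24, against -0.045 over all genes tested. It was 0.039 with only the highest row per gene and -0.022 on the TPM scale. The list as a whole therefore has no settled direction. The TPM scale here is RPKM rescaled to the same, larger sum in both libraries, with filter and pseudocount kept at 1. Lower levels then pass the filter and the pseudocount weighs less. On that scale 5 genes of this list and 14051 genes in all were tested. Csf1, the ligand gene of Csf1r, was at 3.02 RPKM in the Osr2+/- library and 1.98 RPKM in the Osr2-/- library. With only the highest transcript row, the log2 ratio of Csf1 was 0.16 against -0.43 with its 3 rows summed, and that of Kit was -1.72. Kitl, the ligand gene of Kit, was at 2.81 and 3.16 RPKM.

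Genes that process PDGF ligands or act beside the receptors were found on both sides. Of 15 genes listed, 9 were tested, with intervals above 1 for 4 and below 1 for 3, where 7.84% and 15.9% of all genes tested had such intervals. At least 2-fold higher was 1 of the 9 and 2-fold lower none, against 0.89% and 0.798% of all genes tested. The median log2 ratio was -0.042, but 0.10 without a filter and 0.19 on the TPM scale, so it has no settled direction. Each of these settings admits low genes, so that 14 genes were tested in place of 9. Plau, which encodes urokinase, a protease that can activate PDGF-D, was at 0.606 RPKM in the Osr2+/- library and 1.52 RPKM in the Osr2-/- library, 2.50-fold higher (1.21 to 6.07). It passed the filter through the mutant library alone, so it could enter the count only as a higher gene. Pcsk5, a proprotein convertase gene, was 1.39-fold higher (1.04 to 1.88). Plat, whose product activates PDGF-C, was at 0.773 and 0.876 RPKM, below the filter. The neuropilin genes, whose products are co-receptors for several growth factors, went in opposite directions. Nrp1 was at 5.55 RPKM in the Osr2+/- library and 3.15 RPKM in the Osr2-/- library, 1.76-fold lower (1.48 to 2.09). Nrp2, the gene of this list past 2-fold on the log2(RPKM + 1) scale, was at 5.08 and 14.2 RPKM, 2.79-fold higher (2.35 to 3.27).

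The genes of signalling proteins downstream of the receptors differed in both directions. Of 37 adaptor and effector genes, 33 were tested, and none was 2-fold apart on the log2(RPKM + 1) scale, against 1.69% of all genes tested. Intervals of the plain fold lay above 1 for 3 and below 1 for 7, where 7.84% and 15.9% of all genes had such intervals. The median log2 ratio was -0.040, beside -0.045 over all genes. Pik3r1, the regulatory subunit gene of the phosphoinositide 3-kinase that docks on activated receptors, was at 9.36 RPKM in the Osr2+/- library and 6.07 RPKM in the Osr2-/- library, 1.54-fold lower (1.37 to 1.74). Prkca, a protein kinase C gene, was 1.74-fold lower (1.41 to 2.12). Stat3 was 1.43-fold lower (1.16 to 1.74), with a log2 ratio of -0.42, and of -1.02 with only the highest of its 3 rows. Stat5b was at 0.493 and 1.01 RPKM, 2.06-fold higher as a plain ratio (1.18 to 3.95) and with a log2 ratio of 0.43 on the log2(RPKM + 1) scale. Stat5b is 1 of the 3 genes with an interval above 1 and passed the filter through the mutant library alone.

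Genes that restrain receptor signalling were all tested, and none of the 17 was 2-fold apart on the log2(RPKM + 1) scale or had an interval above 1. An interval below 1 was found for 3 of them, a call made for 15.9% of all genes tested, and the median log2 ratio was -0.068. Dusp1, a phosphatase gene for MAP kinases, was at 4.23 RPKM in the Osr2+/- library and 2.71 RPKM in the Osr2-/- library (fold interval 0.458 to 0.910). Spred1, which encodes an inhibitor of Ras signalling, was at 9.68 and 7.71 RPKM. Ptpn2 was at 4.40 and 2.75 RPKM. Its summed reads gave an interval of 0.602 to 1.08, which is not centred on the RPKM fold of 0.625. The highest row of Ptpn2 alone gave 0.374 to 0.838, so its call depends on the rows used. Spry2 was at 1.84 and 2.49 RPKM, with an interval of 0.857 to 2.25.

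The list for PDGF-induced transcription held 28 genes, those of serum response factor, its ternary complex and Mrtf partner factors, and targets. It thus mixes factors with their targets and is not a measure of PDGF response. Of the 28 genes, 20 were tested, and the median log2 ratio was 0.031. At least 2-fold higher were 2 of these and 2-fold lower none, against 0.89% and 0.798% of all genes tested. Intervals lay above 1 for 3 and below 1 for 1, against 7.84% and 15.9%. The genes past 2-fold were the zinc-finger factors Egr1, at 4.62 and 10.5 RPKM, and Egr2, at 0.624 and 3.05 RPKM. Egr2 passed the filter through the mutant library alone, so of these only Egr1 was above 1 RPKM in both libraries. Srf, which encodes serum response factor, was at 3.87 and 4.66 RPKM with a fold interval of 0.960 to 1.53. Arid5b, which encodes a DNA-binding protein, was at 10.01 RPKM in the Osr2+/- library and 7.36 RPKM in the Osr2-/- library, 1.36-fold lower (1.18 to 1.56). Ier3 was at 1.83 and 1.05 RPKM, with an interval of 0.285 to 1.25. Of 6 primary cilium genes, which serve the alpha receptor in fibroblasts, 5 were tested. The median log2 ratio was -0.067, beside -0.045 over all genes tested. The intervals of 4 of these included 1, and Ift20 was 1.44-fold lower (1.07 to 1.90), at 13.97 and 9.73 RPKM. An interval below 1 was found for 15.9% of all genes tested, so 1 of 5 does not set the list apart.

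**Figure D4:**
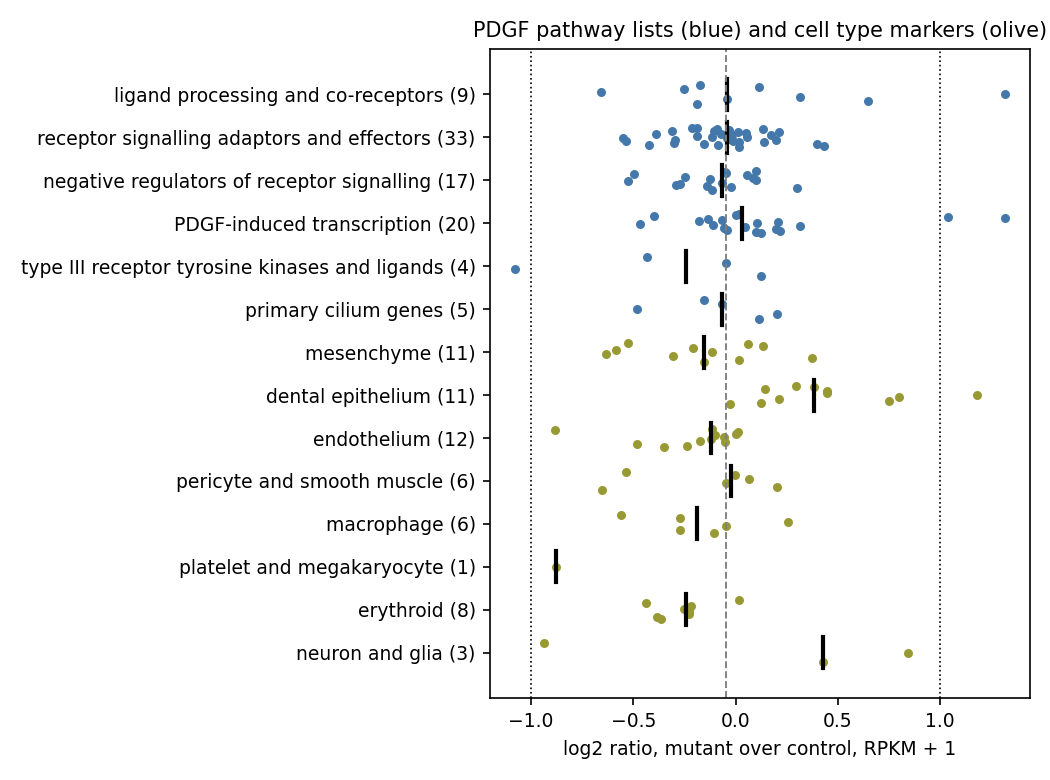
Points give the log2 ratio (mutant over control, RPKM + 1) of each gene tested in the pathway lists and the cell type marker lists, with the number of genes in brackets; black bars are list medians, the dashed line is the median of all genes tested and dotted lines mark 2-fold. Dental epithelium markers lie highest among the lists with more than 3 genes (median 0.38), and adaptor genes centre on the median of all genes.

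Markers of the cell types that make or receive PDGF differed between the libraries by list. Mesenchyme markers were abundant in both, with a summed level of 646 RPKM in the Osr2+/- library and 570 RPKM in the Osr2-/- library over 12 genes. Of the 11 tested, 6 had an interval below 1 and 1 above 1, against 15.9% and 7.84% of all genes tested. These are abundant genes, and intervals exclude 1 more often where reads are many. With a filter of 5 RPKM, which all 11 passed, 814 intervals lay below 1 and 390 above, of 3909 genes in all. The median log2 ratio of the list was -0.16. Pax9 was at 61.7 and 39.4 RPKM and Prrx1 at 151 and 122 RPKM. A log2 ratio above 0 was found for 4 of the 11. Among these were Col3a1, at 86.1 and 94.5 RPKM with a fold interval of 1.05 to 1.14, and Prrx2, at 5.98 and 8.04 RPKM with an interval of 0.952 to 1.95. Pdgfra was lower in the same library, and the part of mesenchymal cell content in its difference was not tested.

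Dental epithelium markers were higher in the Osr2-/- library, although the captured tissue was labelled mesenchyme. Over the 15 genes in the files their summed level was 46.4 RPKM in the Osr2+/- library and 64.5 RPKM in the Osr2-/- library; of 11 tested, 6 had an interval above 1 and none below 1, against 7.84% and 15.9% of all genes tested. Of those 6, Krt18 passed the filter through the mutant library alone. Krt14 was at 5.80 and 8.28 RPKM and Krt17 at 1.48 and 4.63 RPKM, while Shh was at 0 and 0.175 RPKM and Cldn7 at 0 and 0.392 RPKM. The control library is the shallower one, and for neither Shh nor Cldn7 was a difference detectable at this depth. Epithelium is a known source of PDGF-A, and its part in the Pdgfa values was not tested.

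Pericyte and smooth muscle markers went in both directions. Over 14 genes they summed to 24.2 RPKM in the Osr2+/- library and 19.4 RPKM in the Osr2-/- library, 6 were tested, 2 had an interval below 1 and none above 1, against 15.9% and 7.84% of all genes tested. Rgs5, a pericyte gene, was at 8.67 and 5.15 RPKM and Acta2, the smooth muscle actin gene, at 2.77 and 1.60 RPKM. Notch3 was at 2.71 and 3.28 RPKM and Cspg4 at 1.18 and 1.28 RPKM, with intervals that included 1. The part of pericyte content in the Pdgfrb values was not tested. Vtn was listed at 0 in both libraries, and Cnn1 and Higd1b at 0 in the Osr2-/- library.

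Endothelial markers, from the main cell source of PDGF-B, summed to 42.3 RPKM in the Osr2+/- library and 34.6 RPKM in the Osr2-/- library over 14 genes. Of 12 tested, 2 had an interval below 1, a share near the 15.9% of all genes tested, and none above 1. Of those 2, Tie1 passed the filter through the control library alone. Named markers were Cdh5 at 10.5 and 9.62 RPKM and Emcn at 5.53 and 2.54 RPKM (log2 ratio -0.88, and -1.90 with its highest row alone). Only Pf4 among 8 platelet genes passed the filter, at 4.06 RPKM in the Osr2+/- library and 1.75 RPKM in the Osr2-/- library. The median log2 ratio of the platelet genes was 0.036 without a filter and 0.32 on the TPM scale, so this list has no settled direction. Macrophage and erythroid markers had median log2 ratios of -0.19 and -0.24 over 6 and 8 genes tested. Of 11 neuron and glia markers only 3 were tested, with log2 ratios from -0.94 (Gfra3) to 0.84; their median of 0.43 was 0.083 without a filter.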

How the data were processed

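RNA-seq libraries of lower molar mesenchyme, 1 per genotype, were analysed. Per the labels' protocols, cDNA was amplified from laser-captured tissue with the NuGEN Ovation RNA-Seq v2 kit. The submitters' processing notes name build mm9, Bowtie 0.12.7 and TopHat 1.4.1. The authors deposited RPKM values and mean coverage per RefSeq transcript row, per the file headers; coverage is not scaled for depth. For Cufflinks version, read length and strand: not given in the sources used here.

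Rows marked as failed or as high-data (54 rows of 18 genes, none a PDGF gene) were left out and the others summed per symbol, leaving 22054 genes. The log2 ratio was taken of RPKM + 1, which understates differences of low genes, and folds with an interval are plain ratios. Approximate reads were coverage times length divided by 44.3 bases, the median such product between 20 and 66 bases, averaged over both libraries. This step lies inside that window by construction, whatever the read length, and the estimated mapped reads rest on it. Only 27.5% of low products in the control and 25.7% in the mutant lay within 0.1 of a whole read, so this step is uncertain. Poisson intervals for levels and Clopper-Pearson intervals for folds and ratios rest on it; for genes with rows of unequal length, the interval can lie off the RPKM fold. A median of 57.0 control and 348 mutant reads lay behind each gene tested. The functions were tested on simulated data (Python 3.11.15, SciPy 1.17.1). Locus starts counted from 0 and are given from 1.

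Genes named were Osr2, the PDGF genes, the 3 nearest in level to each receptor kinase gene and up to 4 members per list with the largest absolute log2 ratio; others (Plat, Srf, Shh, Prrx1, Col3a1, Cdh5, Chic2, undetected markers) were named after their values were seen. The members and lists were chosen with earlier results of these data known. Hras and Trp63 were not in the tables under these symbols.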

Additional observations from a re-analysis of the deposited data

How the results depend on the processing

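No paired analysis was possible because each genotype has 1 library, and leaving out a library leaves nothing to compare. The log2 ratios of all 7 PDGF genes stayed within their counting intervals under another pseudocount (0.1 or 5 RPKM), the TPM scale and median centring. Coverage scaled by depth is proportional to RPKM in each library, so its near-identical values are no separate check. With the highest transcript row per gene, 6 of the 7 log2 ratios stayed within their intervals and Pdgfrb moved to 0.56. Genes with a single row cannot change under that setting. The Pdgfra share of receptor RPKM was then 77.6% in the control and 65.3% in the mutant, and the Pdgfrb share 17.3% and 31.6%. No PDGF gene was 2-fold apart under any of 7 alternatives, while with 100 bases as 1 read, 1 fold interval excluded 1 (fewer reads widen every interval).

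The list of ligand processing genes had medians of -0.19 with a filter of 5 RPKM, 0.10 without a filter and 0.19 on the TPM scale, and 2 (pseudocount of 0.1 RPKM) or 3 (TPM scale) genes 2-fold apart. Adaptor genes had 2 genes 2-fold apart with the highest row. The list for PDGF-induced transcription had 1 with a filter of 5 RPKM and 4 on the TPM scale. The counts over all genes moved with the settings too, from 87 higher and 78 lower of 9779. On the TPM scale they were 895 and 690 of 14051, and with the highest row 151 and 270 of 9691. With a pseudocount of 0.1 RPKM they were 197 and 244 of 9779, and with a filter of 5 RPKM 24 and 26 of 3909. The type III kinase list had medians of -0.048 without a filter, -0.022 on the TPM scale and 0.039 with the highest row. None of its genes reached 5 RPKM, so that filter gives it no value. It had 2 genes 2-fold apart on the TPM scale and, with the highest row, 1 with an interval excluding 1. Over all genes, the highest row gave 875 intervals above 1 and 1954 below, of 9691. With a filter of 5 RPKM, Ift20 was the 1 cilium gene left, at -0.48. Among the marker lists, a filter of 5 RPKM moved the medians of endothelium to -0.50, of pericytes to -0.65 and of macrophages to -0.56 (2, 1 and 1 genes left), and the epithelium median lay between 0.30 and 0.56 under all alternatives. Other causes were not tested. The shallow control library limits what can be seen for Pdgfb, Pdgfd and Pdgfrl.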
